A study of Homo sapiens with 4 samples.

Results

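The cytosolic ribosome is built from a large and a small subunit, and the genes described here encode its protein components. They were taken from the deposited count table as the protein-coding genes whose symbol is RPL or RPS followed by a number, together with RPLP0, RPLP1, RPLP2 and RPSA, without the RPS6K kinases and RPS19BP1. The rule found 90 of the 19912 genes in the table, 55 of the large and 35 of the small subunit. Of these, 77 are the main genes (46 large and 31 small), 10 are paralogues with a closely related coding sequence, and 3 are readthrough genes that join a ribosomal protein gene to its neighbour (RPL17-C18orf32, RPL36A-HNRNPH2 and RPS10-NUDT3).

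Endothelial cells that carry a GATA2/eGFP reporter signal were derived from H1, an established human embryonic stem cell line, and their RNA was sequenced. The 2 groups were GFI1-KO cells, in which GFI1 is knocked out, and WT cells, with 2 libraries each. GFI1 is a transcriptional repressor known for its role when blood cells arise from endothelium, and the study asked how the transcriptome of these cells differs without it. Both groups share the H1 background and the reporter gate, and the labels used here do not give the number of knockout clones, the altered part of the gene or whether the replicates were separate cultures. The p-values therefore cover no more than the scatter among these libraries, some or all of which may be technical.

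GFI1 had 19.9 and 19.6 CPM in the GFI1-KO libraries, from 3 and 44 counts, against 58.5 and 58.3 CPM in the WT libraries, where CPM is the count after scaling by the TMM-adjusted library total. The gene's counts and the labels go the same way, and the edgeR test gave an adjusted p of 0.0215 (log2 fold change -1.57, SE 0.31). The adjusted p of GFI1 was 0.137 with WT replicate 1 left out, 0.096 with WT replicate 2 left out, 0.271 with GFI1-KO replicate 2 left out and 0.442 with DESeq2, at log2 fold changes of -1.54 to -1.58. GFI1-KO replicate 1 stands apart by depth, with 146584 counts against 2239214 to 2417410 in the other 3 libraries, so results are also given without it. A floor of 3 counts is 19.9 CPM in GFI1-KO replicate 1 and 1.26 to 1.34 CPM in the others. The 8 endothelial markers summed to 7956 and 9206 CPM in GFI1-KO libraries, against 6007 and 6324 CPM in WT libraries. KDR was the largest part of each sum, at 3703 and 4970 CPM in GFI1-KO and 2995 and 3285 CPM in WT libraries. Of these markers, 7 had a log2 fold change above 0. PECAM1 went the other way, with 344.5 and 324 CPM in GFI1-KO libraries, against 443 and 388 CPM in WT libraries. The 8 blood markers summed to 39.8 and 81.5 CPM in GFI1-KO libraries, against 132 and 295 CPM in WT libraries, mostly from RUNX1. RUNX1 had 39.8 and 67.7 CPM in GFI1-KO libraries, against 87.1 and 225 CPM in WT libraries. In GFI1-KO replicate 1 it had 6 counts and the other 7 blood markers had 0. PTPRC, the pan-leukocyte marker, had 0 counts in all 4. The 6 pluripotency markers summed to 609 and 569 CPM in GFI1-KO libraries, against 731 and 764 CPM in WT libraries, mostly from LIN28A, with NANOG at 0 counts in all 4. The 8 mesenchymal markers summed to 589.6 and 716 CPM in GFI1-KO libraries, against 874 and 722 CPM in WT libraries, mostly from COL1A1. GATA2, the gene named in the reporter, had 139 and 124 CPM in GFI1-KO libraries, against 293 and 252 CPM in WT libraries. Its log2 fold change was -1.09 (SE 0.235, edgeR adjusted p = 0.0376), so the reporter gate does not make the genotypes alike in GATA2 mRNA. The part of GATA2 and of these marker levels in the ribosomal protein values was not tested.

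Ribosomal proteins are made in near-equal amounts and assembled with ribosomal RNA in the nucleolus, and surplus copies are degraded. Most of their mRNAs belong to the TOP class: they begin with a C followed by an unbroken run of pyrimidines, a feature through which the growth kinase mTOR and the RNA-binding protein LARP1 control their translation. Inherited loss of 1 copy of several of these genes causes Diamond-Blackfan anaemia, in which the red cell lineage fails, and free RPL5 and RPL11 bind MDM2, a ubiquitin ligase.

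Most member genes with a listed start carry this feature there. The windows below show RPLP0, RPS6 and RPS19 as typical TOP starts, RPL15 as the member with the highest level and no such run at its listed start, and 4 pairs of a main gene and its paralogue, whose starts can be compared. Each line gives 30 bases, 15 before and 15 from the annotated start, read in the direction of transcription. Sequences and coordinates are from RefSeq, build GRCh38.p14, and capitals mark a C at the start followed by at least 4 bases that are each C or T. Where RefSeq lists several starts for a gene, the one with the longest run is shown.
RPLP0 (chr12:120201097-120201126, minus strand): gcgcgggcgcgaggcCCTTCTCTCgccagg
RPS6 (chr9:19380222-19380251, minus strand): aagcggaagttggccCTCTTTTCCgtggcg
RPS19 (chr19:41860240-41860269, plus strand): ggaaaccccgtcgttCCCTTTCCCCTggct
RPL15 (chr3:23916530-23916559, plus strand): ggcgctggggcctgctggaggagcttcacg
RPL22 (chr1:6199581-6199610, minus strand): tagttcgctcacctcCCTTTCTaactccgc
RPL22L1 (chr3:170870181-170870210, minus strand): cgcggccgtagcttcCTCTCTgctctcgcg
RPS27 (chr1:153990747-153990776, plus strand): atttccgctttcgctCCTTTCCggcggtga
RPS27L (chr15:63157463-63157492, minus strand): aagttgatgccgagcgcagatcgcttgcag
RPL36A (chrX:101390996-101391025, plus strand): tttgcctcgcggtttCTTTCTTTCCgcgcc
RPL36AL (chr14:49620612-49620641, minus strand): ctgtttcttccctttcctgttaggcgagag
RPL26 (chr17:8383179-8383208, minus strand): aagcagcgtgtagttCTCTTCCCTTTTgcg
RPL26L1 (chr5:172958714-172958743, plus strand): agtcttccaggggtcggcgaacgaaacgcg

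A start of this form was listed for 49 of the 72 member genes that the table holds, and for 46 of 62 main genes (74.2%) against 2 of 8 paralogues. Counted over starts, 55.1% of 89 member starts held it, against 4.07% of all 35116 listed starts. Of the pairs shown, RPL22 and RPL22L1 both carry the run, and in the other 3 pairs it stands at the start of the main gene and not at the listed start of the paralogue. The letters AAATCA, part of the motif to which GFI1 is known to bind, were found on either strand in the window of 250 bases before to 50 after the start for 4.49% of member starts and 13.2% of all starts; a match is a run of letters, not a binding site. The 45 tested main genes with a pyrimidine start had a median log2 fold change of -0.09, and the 16 tested main genes with a listed start of another form had -0.15.

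No ribosomal protein gene passed the test between GFI1-KO and WT cells. Of the 83 members with enough counts to be tested, 0 were called higher and 0 lower at an adjusted p under 0.05, and 1 had an unadjusted p under 0.05 (RPL36A). The 7 members not tested were the 3 readthrough genes, RPL3L, RPL10L, RPS10 and a Y-linked gene. Over all 11380 genes tested, 0.958% were called, 0.773% higher and 0.185% lower, so a count of 0 among 83 is near this background and is no result about the members. The counts of called members were also 0 with DESeq2, limma-voom and every other alternative tried. The median log2 fold change of the members was -0.10, with -0.11 for 51 large and -0.07 for 32 small subunit genes, beside -0.02 for all genes tested. Leaving out GFI1-KO replicate 1 gave -0.16, leaving out GFI1-KO replicate 2 gave 0.03, leaving out WT replicate 1 gave 0.01 and leaving out WT replicate 2 gave -0.16, so its sign rests on which libraries enter. In bulk RNA, fewer cells of a type and less RNA per cell cannot be told apart.

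The intervals say how large a difference between these libraries the test could have missed. Like the p-values, they cover no more than the scatter among these libraries. The 95% interval of the fold change lay within 2-fold in either direction for 77 of the 83 tested members and within 1.5-fold for 32. Standard errors on the log2 scale were between 0.21 and 0.67, with a median of 0.22, and 80 members had a log2 fold change within 0.5 of 0. The extremes were RPL36A at -1.45 and RPL26 at 0.42. With GFI1-KO replicate 1 left out RPL26 was at 0.20, with GFI1-KO replicate 2 left out at 1.00 and with WT replicate 2 left out at 0.64. RPL36A was between -1.83 and -1.08 with any other library left out, and without GFI1-KO replicate 2, where its only GFI1-KO count is 0, the fit gave -6.86, which depends on the prior count and is no bound. Both GFI1-KO libraries were below both WT libraries for 20 members (24.1%; 22.7% of all genes tested) and above both for 3 members (3.61%; 18.6% of all genes tested), and the groups overlapped for 60.

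**Figure D1:**
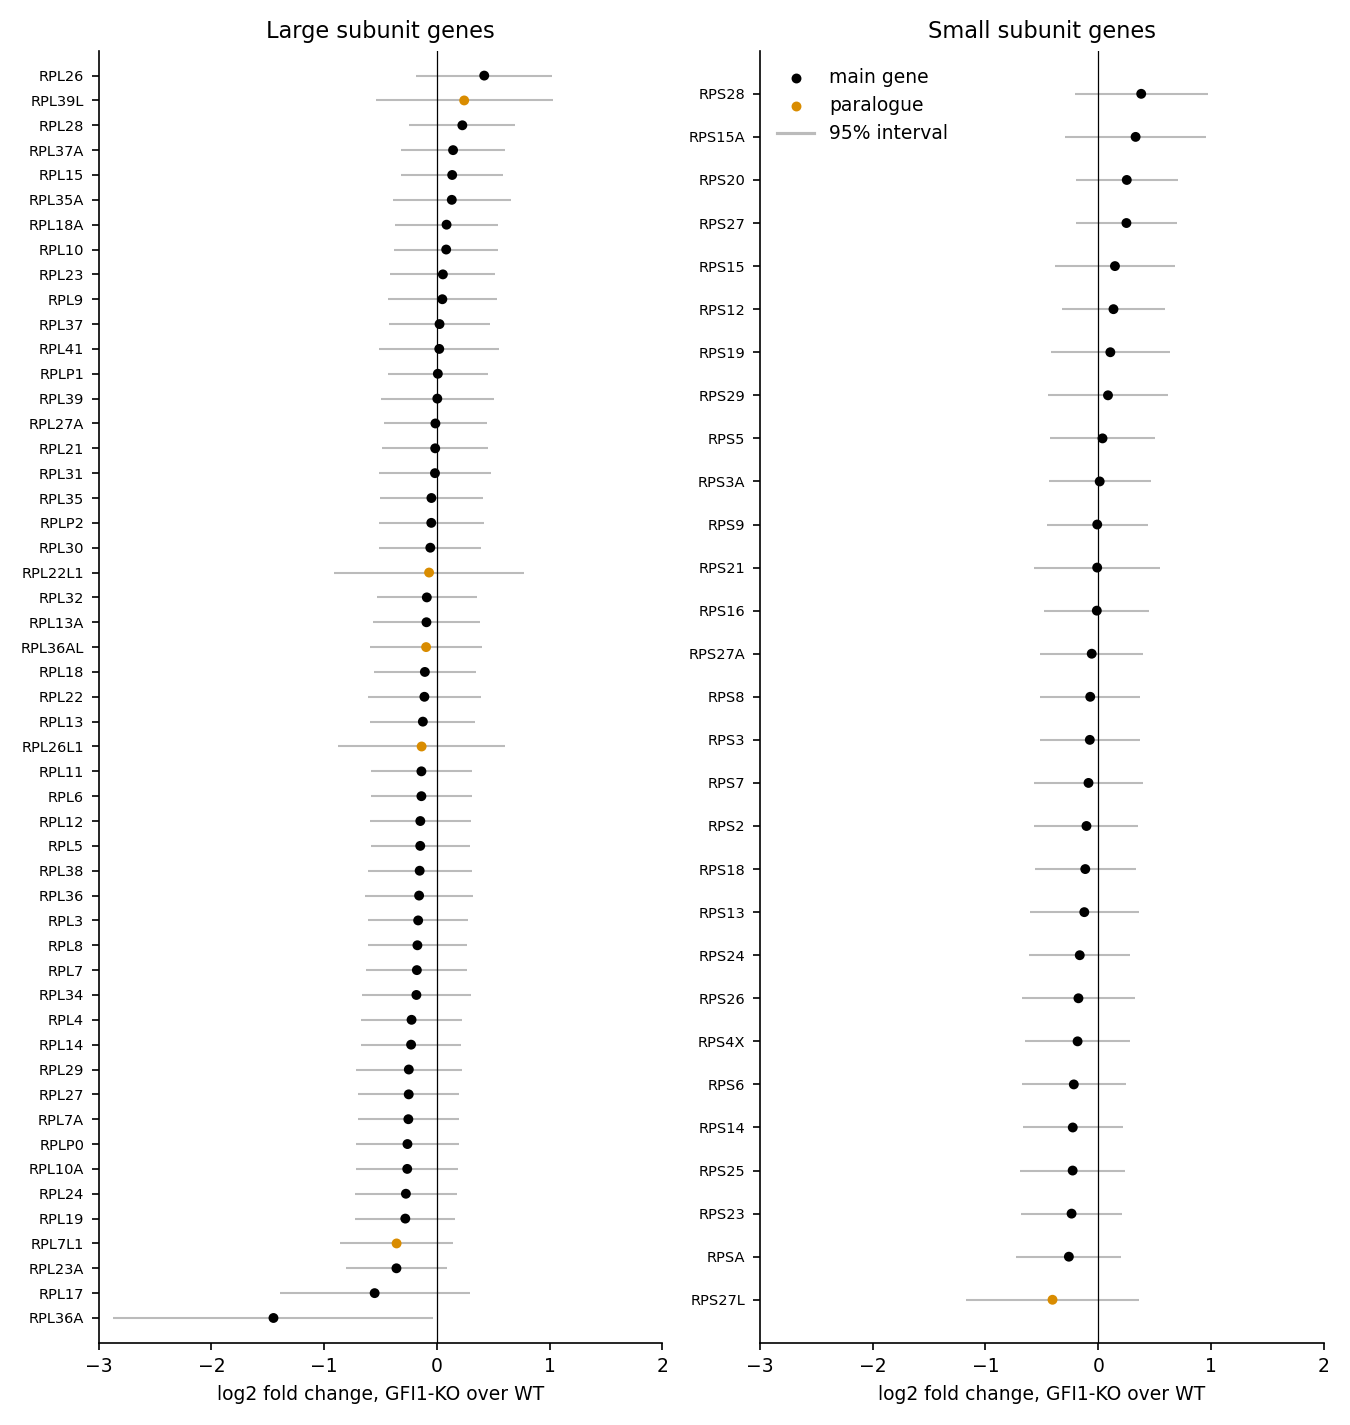
Log2 fold change, GFI1-KO over WT, of each tested ribosomal protein gene (large subunit left, small subunit right; black, main gene; orange, paralogue; grey bars, 95% interval from the edgeR fit; the Y-linked member and a few others are not drawn). All intervals drawn but that of RPL36A include 0, and that gene's adjusted p was 0.507.

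Ribosomal protein transcripts made up 3.74% to 4.58% of the counts of a library. Their share of all counts was 4.44% and 3.74% in the GFI1-KO libraries, against 4.58% and 3.98% in the WT libraries, and the groups overlapped. The means were 4.09% ± 0.49 in GFI1-KO and 4.28% ± 0.42 in WT libraries (SD, n = 2 each; exact two-sided permutation p = 0.667). With 2 libraries against 2 this test cannot give a p below 0.333. The shallow GFI1-KO replicate 1 had an exact binomial (Clopper-Pearson) 95% interval of 4.33% to 4.54%, so the distance between the 2 libraries of a genotype was larger than counting error alone. Without GFI1-KO replicate 1 the difference, GFI1-KO minus WT, was -0.54 percentage points, and without GFI1-KO replicate 2 it was 0.16.

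The balance of the subunits leaned a little less to the large one in both GFI1-KO libraries, in replicate 2 by a narrow margin. The exact test of 2 against 2 libraries cannot call this difference. Large subunit genes took 2.84% and 2.43% of the counts in GFI1-KO libraries, against 2.98% and 2.62% in WT libraries. Small subunit genes took 1.60% and 1.31% in GFI1-KO libraries, against 1.60% and 1.36% in WT libraries. The log2 ratio of large to small subunit counts, which needs no scaling between libraries, was 0.83 and 0.90 in GFI1-KO libraries, against 0.90 and 0.94 in WT libraries. Both GFI1-KO values were below both WT values, the second by a narrow margin of 0.8966 against 0.8987. That margin was not set against counting error. The difference was -0.06 (GFI1-KO 0.86 ± 0.05, WT 0.92 ± 0.03, SD, n = 2 each; exact two-sided permutation p = 0.333, the smallest possible). It was -0.15 when the 54 members that share exons with another annotated gene were left out, and -0.13 as a difference of mean log2 CPM. Leaving out GFI1-KO replicate 1 gave -0.03 and leaving out GFI1-KO replicate 2 gave -0.09. Without WT replicate 1 it was -0.08, and without WT replicate 2 it was -0.04.

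**Figure D2:**
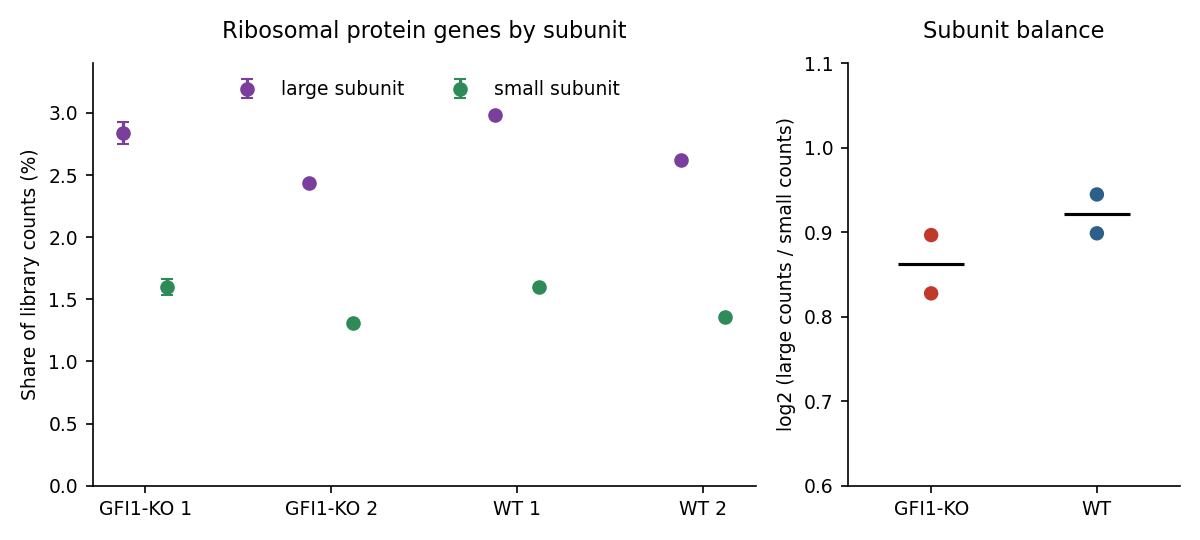
Left, percent of each library's counts in large and small subunit ribosomal protein genes, with exact 95% binomial intervals that cover counting error only; right, log2 ratio of large to small subunit counts for the 2 libraries of each genotype (points) and their mean (line), on an axis that does not start at 0. Replicate 1 of either genotype holds the larger share in both subunits. The 2 GFI1-KO ratios lie below the 2 WT ratios, that of replicate 2 by a narrow margin.

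Among the functional groups of the large subunit, the stalk comes first. RPLP0 is its base and binds the RPLP1 and RPLP2 dimers, which recruit elongation factors. RPLP0 had 1146 and 1344 CPM in GFI1-KO libraries, against 1626 and 1380 CPM in WT libraries, both GFI1-KO values below both WT values, and did not pass the test (log2 fold change -0.26, SE 0.22, adjusted p = 0.844). RPLP1 had 901 and 811 CPM in GFI1-KO libraries, against 882 and 809 CPM in WT libraries. RPLP2 had 431 and 339 CPM in GFI1-KO libraries, against 409 and 364 CPM in WT libraries. The values of RPLP1 and RPLP2 overlapped between the genotypes, with log2 fold changes of 0.01 and -0.05.

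RPL5 and RPL11 join the smallest ribosomal RNA of the large subunit in a particle that, when free, binds MDM2. RPL5 had 821 and 884 CPM in GFI1-KO libraries, against 961 and 936 CPM in WT libraries. RPL11 had 616 and 567 CPM in GFI1-KO libraries, against 696 and 595 CPM in WT libraries. For RPL5 the groups did not overlap and for RPL11 they did, while their log2 fold changes were close, -0.15 (SE 0.21) and -0.14 (SE 0.21), neither past the test.

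RPL3, RPL8 and RPL10 reach towards the peptidyl transferase centre, where peptide bonds form. RPL3 had 1318 and 1399 CPM in GFI1-KO libraries, against 1613 and 1443 CPM in WT libraries (log2 fold change -0.17). RPL8 had 682 and 734 CPM in GFI1-KO libraries, against 839 and 766 CPM in WT libraries (log2 fold change -0.17). Both were lower in each GFI1-KO library than in either WT library, within their error. RPL10, which is added late in the assembly of the subunit, had 782 and 646 CPM in GFI1-KO libraries, against 737 and 592 CPM in WT libraries, and its groups overlapped.

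The nascent chain leaves through a tunnel lined by RPL4, RPL17 and RPL39. RPL4 had 1464 and 1635 CPM in GFI1-KO libraries, against 1871 and 1765 CPM in WT libraries (log2 fold change -0.22, SE 0.21, adjusted p = 0.871). It held the highest count of any member in all 4 libraries, 221 and 3674 in GFI1-KO and 4190 and 4206 in WT. RPL39, a very short protein, had 291 and 242 CPM in GFI1-KO libraries, against 299.6 and 217 CPM in WT libraries, with WT values on both sides of the GFI1-KO values. At the rim of the tunnel, RPL23A and RPL19 had log2 fold changes below 0 and RPL26 had the highest log2 fold change of any tested member. RPL23A, the docking site of the signal recognition particle, had 556 and 540.4 CPM in GFI1-KO libraries, against 763 and 639 CPM in WT libraries (log2 fold change -0.36, SE 0.21, adjusted p = 0.695). RPL19 had 782 and 779 CPM in GFI1-KO libraries, against 1011 and 884 CPM in WT libraries (log2 fold change -0.28, SE 0.21, adjusted p = 0.81). RPL26 had 126 and 72.6 CPM in GFI1-KO libraries, against 57.6 and 68.8 CPM in WT libraries (log2 fold change 0.42, SE 0.28, adjusted p = 0.773). The RPL26 values were above both WT values in both GFI1-KO libraries, but the higher one rests on 19 counts, with a counting interval of 75.8 to 197 CPM.

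In the small subunit, RPS2, RPS3, RPS15, RPS23 and RPS27A lie at the decoding site or the mRNA entry. RPS2 had 1325 and 1014 CPM in GFI1-KO libraries, against 1280 and 1201 CPM in WT libraries. RPS3 had 861 and 766 CPM in GFI1-KO libraries, against 886 and 814 CPM in WT libraries. RPS23, which helps to set the accuracy of decoding, had 484 and 539.5 CPM in GFI1-KO libraries, against 666 and 552 CPM in WT libraries. Of this group RPS23 alone had both GFI1-KO values below both WT values, and it did not pass the test (log2 fold change -0.24, SE 0.21, adjusted p = 0.86). RPS15 had 331 and 301 CPM in GFI1-KO libraries, against 353 and 211 CPM in WT libraries, a spread within WT that exceeds the distance between the genotypes. RPS27A, made as a fusion with ubiquitin, had 549.8 and 453 CPM in GFI1-KO libraries, against 552 and 470.4 CPM in WT libraries. The other 4 log2 fold changes of this group were -0.10 for RPS2, -0.07 for RPS3, 0.15 for RPS15 and -0.06 for RPS27A.

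RPSA, RPS14, RPS26 and RPS28 sit where the mRNA leaves the small subunit. RPS14 had 450.5 and 417 CPM in GFI1-KO libraries, against 519 and 486 CPM in WT libraries (log2 fold change -0.23, SE 0.21). RPS26 had 106 and 115 CPM in GFI1-KO libraries, against 129.5 and 125 CPM in WT libraries (log2 fold change -0.18, SE 0.24). For these 2 genes the groups did not overlap, and neither passed the test. RPSA, also known as the laminin receptor, had 603 and 486.5 CPM in GFI1-KO libraries, against 701 and 577 CPM in WT libraries. RPS28 had 371 and 202 CPM in GFI1-KO libraries, against 233 and 167 CPM in WT libraries. RPSA and RPS28 overlapped between the genotypes, with log2 fold changes of -0.26 and 0.38.

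RPS6, the classical substrate of the S6 kinases, had 589.6 and 812 CPM in GFI1-KO libraries, against 864 and 805 CPM in WT libraries. GFI1-KO replicate 1 was the low one, at 89 counts, and the value of replicate 2 fell between those of WT (log2 fold change -0.22, SE 0.22, adjusted p = 0.885). The 3 members that were higher in both GFI1-KO libraries than in both WT libraries were RPL26, given above, RPS20 and RPS27. RPS20 had 623 and 561 CPM in GFI1-KO libraries, against 540.3 and 444 CPM in WT libraries (log2 fold change 0.25, SE 0.21, adjusted p = 0.845). RPS27 had 490.2 and 425 CPM in GFI1-KO libraries, against 394 and 363 CPM in WT libraries (log2 fold change 0.25, SE 0.21, adjusted p = 0.846).

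Of 16 genes on a list for Diamond-Blackfan anaemia, 15 were tested and 0 were called. At a background of 0.958% called, this is no result about the list. Their median log2 fold change was -0.02, with 7 above and 8 below 0 (53.3% below; 52.5% of all genes tested). Leaving out GFI1-KO replicate 1 gave a median of -0.16, leaving out GFI1-KO replicate 2 gave 0.29, leaving out WT replicate 1 gave 0.20 and leaving out WT replicate 2 gave -0.09, so its sign rests on which libraries enter. Both GFI1-KO libraries were below both WT libraries for 4 of them (26.7%; 22.7% of all genes tested) and above for 2 (13.3%; 18.6% of all genes tested). The 4 with the smallest adjusted p were RPL26, RPS28 and RPS27, given above, and RPL27, a gene of the large subunit. RPL27 had 338 and 387 CPM in GFI1-KO libraries, against 457 and 419.6 CPM in WT libraries (log2 fold change -0.25, SE 0.21, adjusted p = 0.847). RPS19, the gene most often mutated in this anaemia, had 735 and 448 CPM in GFI1-KO libraries, against 589.9 and 459 CPM in WT libraries, so the 2 GFI1-KO values lay on either side of the WT values.

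Per length, the levels of the main genes spanned a wide range, with a few far below the rest. On the scale of CPM per kilobase of transcript, averaged over both genotypes, the 77 main genes had a median level of 601, with quartiles at 393 and 834. Among the highest were RPL15 at 1314, RPS2 at 1223, RPS24 at 1192, RPL19 at 1172 and RPS27 at 1164 CPM per kilobase. RPL15, a core protein of the large subunit, had 1245 and 1022 CPM in GFI1-KO libraries, against 1062 and 979 CPM in WT libraries. RPS24 had 782 and 654 CPM in GFI1-KO libraries, against 823 and 763 CPM in WT libraries. All of these overlapped between the genotypes except RPL19 and RPS27. At the low end, RPL17 was at 31.8, RPL36A at 12.6 and RPS10 at 11.6 CPM per kilobase. Ribosomal protein genes have many processed pseudogenes, and 76 of the 77 main genes had at least 1 annotated by name, 1132 in all. The sources used here do not give how reads that match several copies were counted, and absolute levels are therefore uncertain. Levels per length also rest on the transcript chosen. RPL37 and RPS23 were at 69.9 and 163 CPM per kilobase, with transcripts of 7686 and 3437 nucleotides and coding sequences of 291 and 429. Across the 77 genes the level and the number of pseudogenes had a Spearman correlation of -0.04, as a description.

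Most paralogues gave fewer counts than their main genes, with 1 exception. Of 9 pairs listed, 6 had at least 10 counts for the paralogue and were compared as log2((paralogue + 0.5) / (main gene + 0.5)) within each library. Percentages of a pair are from counts summed over the 2 libraries of a genotype, so that GFI1-KO replicate 2 supplies most of the GFI1-KO counts. RPL22L1, a paralogue of RPL22 known in blood development from work in zebrafish and mouse, made up 5.30% of the counts of its pair in GFI1-KO cells and 4.54% in WT cells. Its counts were 3 and 37 in GFI1-KO libraries, against 40 and 42 in WT libraries. The log2 ratio was -4.27 and -4.11 in GFI1-KO libraries, against -4.40 and -4.35 in WT libraries. This separation rests on the pseudocount. Without it, 3 counts to 67 of RPL22 would put GFI1-KO replicate 1 below both WT libraries, at 40 to 855 and 42 to 868. RPL39L, whose product is known from the testis, made up 9.12% of its pair in GFI1-KO cells and 7.19% in WT cells. Its counts were 2 and 57 in GFI1-KO libraries, against 46 and 46 in WT libraries, and those of RPL39 were 44 and 544 in GFI1-KO libraries, against 671 and 517 in WT libraries. The log2 ratios, -4.15 and -3.24 in GFI1-KO libraries against -3.85 and -3.48 in WT libraries, overlapped, so the summed percentages show no direction. RPS27L made up 9.11% of its pair in GFI1-KO cells and 13.9% in WT cells. It had 72.9 and 40.9 CPM in GFI1-KO libraries, against 83.1 and 39.9 CPM in WT libraries, so that within each genotype replicate 1 was far above replicate 2. RPL7L1, which works in ribosome assembly, had 106 and 130.0 CPM in GFI1-KO libraries, against 154 and 162 CPM in WT libraries, without overlap (log2 fold change -0.36, SE 0.24, adjusted p = 0.762). RPL26L1 had 2 and 63 counts in GFI1-KO libraries, against 68 and 63 in WT libraries. It made up 26.3% of its pair in GFI1-KO cells and 30.9% in WT cells. The log2 ratios, -2.96 and -1.36 in GFI1-KO libraries against -0.92 and -1.37 in WT libraries, overlapped.

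The exception was RPL36AL, which held 97.9% of the counts of its pair in GFI1-KO cells and 94.6% in WT cells. RPL36A had 0 and 8 counts in GFI1-KO libraries, against 15 and 27 in WT libraries. RPL36AL had 18 and 362 counts in GFI1-KO libraries, against 343 and 394 in WT libraries. The log2 ratio of RPL36AL to RPL36A was 5.21 and 5.41 in GFI1-KO libraries, against 4.47 and 3.84 in WT libraries, a difference of 1.16, or 0.67 with a pseudocount of 1. This separation rests on the pseudocount, since RPL36A had 0 counts in GFI1-KO replicate 1. With a pseudocount of 1 the ratio of that library would fall between those of the WT libraries. No pair passed: the exact two-sided permutation p was 0.333 for RPL36AL and RPL22L1 and 0.667 to 1.0 for the other 4, and 0.8 to 1.0 adjusted over the 6 pairs. The differences of the other ratios, GFI1-KO minus WT, were 0.19 for RPL22L1 (0.27 with a pseudocount of 1), -0.03 for RPL39L and -0.25 for RPL7L1. They were -0.32 for RPS27L and -1.02 for RPL26L1. The paralogues RPL3L and RPL10L, known from muscle and testis, had 1 and 0 counts over all libraries. RPS4X, the X-linked small subunit gene, had 523 and 733 CPM in GFI1-KO libraries, against 764 and 702 CPM in WT libraries; for its Y-linked relatives no level is given.

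RPL36A, RPL17 and RPS10 had few counts for genes of this class, and they share exons on the same strand with another annotated gene. The median main gene had 3305 counts over the 4 libraries. RPL36A (chromosome X, 101390824 to 101396154, plus strand, GRCh38) overlaps RPL36A-HNRNPH2, and its log2 fold change was -1.45 (SE 0.67, unadjusted p = 0.043, adjusted p = 0.507). RPL17 (chromosome 18, 49488453 to 49492523, minus strand) overlaps RPL17-C18orf32 and had 1 and 48 counts in GFI1-KO libraries, against 78 and 53 in WT libraries (log2 fold change -0.55, SE 0.40). RPS10 (chromosome 6, 34417454 to 34426125, minus strand) overlaps RPS10-NUDT3, had 3 and 7 counts in GFI1-KO libraries, against 6 and 10 in WT libraries, and was not tested. The 3 readthrough genes themselves had 0 counts in every library. The part of these overlaps in the counts was not tested, and the values of RPL36A, RPL17 and RPS10 are uncertain.

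The libraries of a genotype differed from each other. Over the 71 members with at least 20 counts in every library, the median absolute log2 difference was 0.14 between GFI1-KO and WT, 0.25 between the 2 GFI1-KO libraries and 0.20 between the 2 WT libraries. The first is a fitted difference over 2 libraries a group and the others are differences of single libraries, so their sizes cannot be ranked. The members moved together: WT replicate 1 was above WT replicate 2 for 76 of the 83 tested (91.6%, beside 50.3% of all genes tested), and GFI1-KO replicate 1 was above GFI1-KO replicate 2 for 60 (72.3%, beside 44.1%). The median tested member had 74 counts in GFI1-KO replicate 1 and 959 to 1068 in the other 3 libraries. The counting interval of GFI1-KO replicate 1 spanned the WT mean for 60 members, lay below it for 11 and above it for 12, and 6 members had 3 counts or fewer there.

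**Figure D3:**
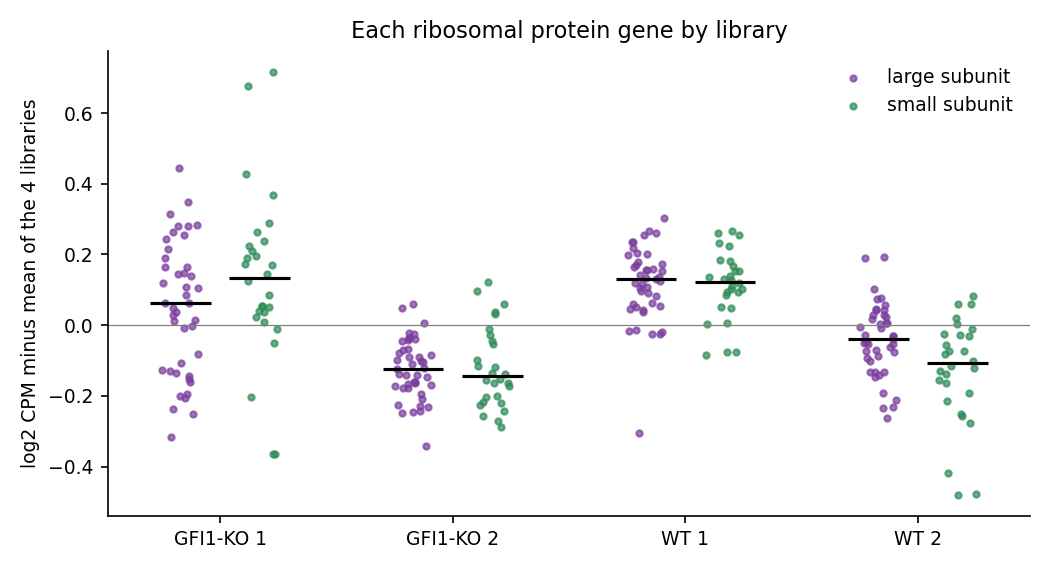
Log2 CPM of each ribosomal protein gene minus its mean over the 4 libraries, for the 71 members with at least 20 counts in every library (points; lines are medians of each subunit). Most points of WT replicate 1 lie above 0 and most of GFI1-KO replicate 2 below it, and GFI1-KO replicate 1 has the widest scatter.

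Among the 71 members with at least 20 counts in every library, the difference between the 2 GFI1-KO libraries varied with coding length. For the 24 shortest members (75 to 405 nucleotides of coding sequence) the median log2 ratio of GFI1-KO replicate 1 to replicate 2 was 0.33, and replicate 1 was higher for 24 of 24. It was 0.21 for the 24 members of middle length (408 to 582 nucleotides) and 0.00 for the 23 longest (588 to 1281 nucleotides), where replicate 1 was higher for 12. The minimum of 20 counts acts mostly through the shallow GFI1-KO replicate 1, so it partly sets these values. Short members that it left out went both ways. RPL36AL had 119 and 161 CPM and RPS26 106 and 115 CPM in GFI1-KO replicates 1 and 2, while RPS27L had 72.9 and 40.9 CPM. The medians of the fitted log2 fold change, GFI1-KO over WT, were 0.00, -0.07 and -0.17 in the same classes. The Spearman correlation with coding length across the 71 members was -0.51 for the 2 GFI1-KO libraries, -0.14 for the 2 WT libraries and -0.46 for the fitted fold change. For GFI1-KO replicate 2 over the mean of the WT libraries it was -0.07. The correlation was also taken over the 1755 genes that meet the same count minimum and have a coding length. It was 0.07 for the 2 GFI1-KO libraries, -0.35 for the 2 WT libraries and 0.17 for the fitted fold change. The members share their libraries, so these values are descriptions. The part of this length relation in single fold changes was not tested.

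**Figure D4:**
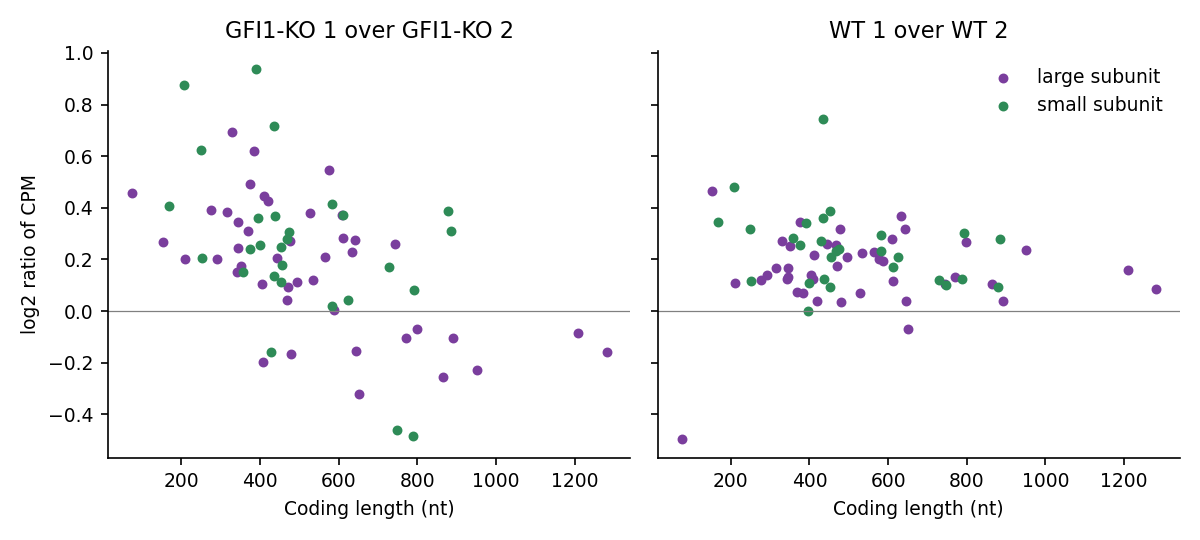
Log2 ratio of CPM between the 2 libraries of a genotype (left, GFI1-KO replicate 1 over 2; right, WT replicate 1 over 2) against the coding length in nucleotides of the 71 members with at least 20 counts in every library. In GFI1-KO the shortest 24 of these members all lie above 0 and the longest scatter around it. The count minimum leaves out members low in GFI1-KO replicate 1. In WT the Spearman correlation is -0.14.

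Genes that make and use ribosomes were set beside the members, in lists chosen with earlier results of these data known. None of the lists below had a called gene, at a background of 0.958%, and leaving out GFI1-KO replicate 2 gave 4 calls in the biogenesis list and 2 in the mitochondrial one. The 56 tested genes of ribosome biogenesis, the nucleolar factors that process ribosomal RNA and assemble subunits, had a median log2 fold change of -0.47. This median was -0.33 when GFI1-KO replicate 1 was left out, -0.88 when GFI1-KO replicate 2 was, -0.66 when WT replicate 1 was and -0.19 when WT replicate 2 was. Of the 56, 51 were below 0 (91.1%; 52.5% of all genes tested), 12 had an unadjusted p under 0.05 (1064 of all 11380 genes tested), and both GFI1-KO libraries were below both WT libraries for 31 (55.4%; 22.7% of all genes tested). BYSL, needed for the small subunit, had 2 and 49 counts in GFI1-KO libraries, against 71 and 123 in WT libraries (log2 fold change -1.01, SE 0.37, adjusted p = 0.296). NOP56, a core protein of the particles that methylate ribosomal RNA, had 79.5 and 122 CPM in GFI1-KO libraries, against 155 and 207 CPM in WT libraries (log2 fold change -0.71, SE 0.26, adjusted p = 0.297). In the opposite order to the ribosomal protein genes, WT replicate 1 was above WT replicate 2 for only 5 of the 56. Their count relative to that of the ribosomal protein genes, as a log2 ratio, was -3.43 and -2.83 in GFI1-KO libraries, against -2.96 and -2.35 in WT libraries, so the genotypes overlapped (exact two-sided permutation p = 0.667).

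Mitochondrial ribosomal protein genes, whose products translate the messages of the mitochondrial genome, had a median log2 fold change of -0.34 over 75 tested. Of these, 70 were below 0 (93.3%; 52.5% of all genes tested), and both GFI1-KO libraries were below both WT libraries for 44 (58.7%; 22.7% of all genes tested). MRPL4 had 46.4 and 43.6 CPM in GFI1-KO libraries, against 67.4 and 74.3 CPM in WT libraries (log2 fold change -0.68, SE 0.27, adjusted p = 0.357). MRPS22 had 1 and 63 counts in GFI1-KO libraries, against 103 and 105 in WT libraries (log2 fold change -0.84, SE 0.34, adjusted p = 0.39). The log2 ratio of mitochondrial to cytosolic ribosomal protein counts was -4.09 and -3.79 in GFI1-KO libraries, against -3.73 and -3.58 in WT libraries. Both GFI1-KO values were below both WT values, with a difference of -0.28 (exact two-sided permutation p = 0.333, the smallest possible).

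Initiation factors bring the ribosome to the mRNA and elongation factors extend the chain. The 29 initiation factors had a median log2 fold change of -0.23, with 26 below 0 (89.7%; 52.5% of all genes tested). It moved to -0.42 with GFI1-KO replicate 2 left out and to -0.15 with WT replicate 2 left out. The 5 tested elongation factors had a median of -0.24, which moved to -0.41 with GFI1-KO replicate 2 left out and to -0.18 with GFI1-KO replicate 1 left out. EIF3C, a subunit of the initiation factor eIF3 with a near-identical neighbouring copy in the genome, had 0 and 9 counts in GFI1-KO libraries, against 18 and 82 in WT libraries (log2 fold change -2.51, adjusted p = 0.152). EIF3B had 179 and 219 CPM in GFI1-KO libraries, against 235 and 314 CPM in WT libraries (log2 fold change -0.41, adjusted p = 0.671). EIF5A, which resolves stalled ribosomes, had 404 and 482 CPM in GFI1-KO libraries, against 618 and 702 CPM in WT libraries (log2 fold change -0.55, adjusted p = 0.36). EEF2, the translocase, had 1722 and 2081 CPM in GFI1-KO libraries, against 2518 and 2182 CPM in WT libraries (log2 fold change -0.30). The 14 tested genes of other TOP mRNAs, a list that shares genes with both factor lists, had a median of -0.16, and their log2 ratio to the ribosomal protein genes differed by -0.01 (exact two-sided permutation p = 1.0).

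Among 14 regulators of ribosomal protein mRNAs the median log2 fold change was -0.09, and between -0.19 without WT replicate 1 and -0.0018 without WT replicate 2. MYC, a transcription factor that drives ribosome production, had 0 and 65 counts in GFI1-KO libraries, against 104 and 215 in WT libraries (log2 fold change -1.44, SE 0.41, adjusted p = 0.135). Leaving out WT replicate 1 or either GFI1-KO library gave a call for MYC, and leaving out replicate 1 of either genotype gave one for EIF3C. LARP1 had 345 and 326 CPM in GFI1-KO libraries, against 446 and 513 CPM in WT libraries (log2 fold change -0.53, SE 0.22, adjusted p = 0.398). CDKN1A, an inhibitor of cyclin-dependent kinases, had 72.9 and 56.5 CPM in GFI1-KO libraries, against 172 and 45.3 CPM in WT libraries (log2 fold change -0.86, SE 0.46, adjusted p = 0.635). The 2 WT values of CDKN1A lay on either side of the GFI1-KO values, and leaving out GFI1-KO replicate 1 or WT replicate 2 gave a call. The median log2 fold change was -0.07 for 12 genes of RNA polymerase I and its factors. That median changed sign with the library left out, at -0.24 lacking GFI1-KO replicate 2 and 0.048 lacking WT replicate 2. Of these 12 genes, POLR1B, at -0.49, and TTF1, at 0.35, had the smallest adjusted p. The median was -0.31 for 6 chaperones and importers of ribosomal proteins. It moved to -0.16 with GFI1-KO replicate 1 left out and to -0.79 with GFI1-KO replicate 2 left out. Of these 6 genes, HEATR3, at -0.59, and BCCIP, at -0.33, had the smallest adjusted p. The fusion gene FAU, which encodes a ribosomal protein outside the symbol rule, had a log2 fold change of 0.11.

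**Figure D5:**
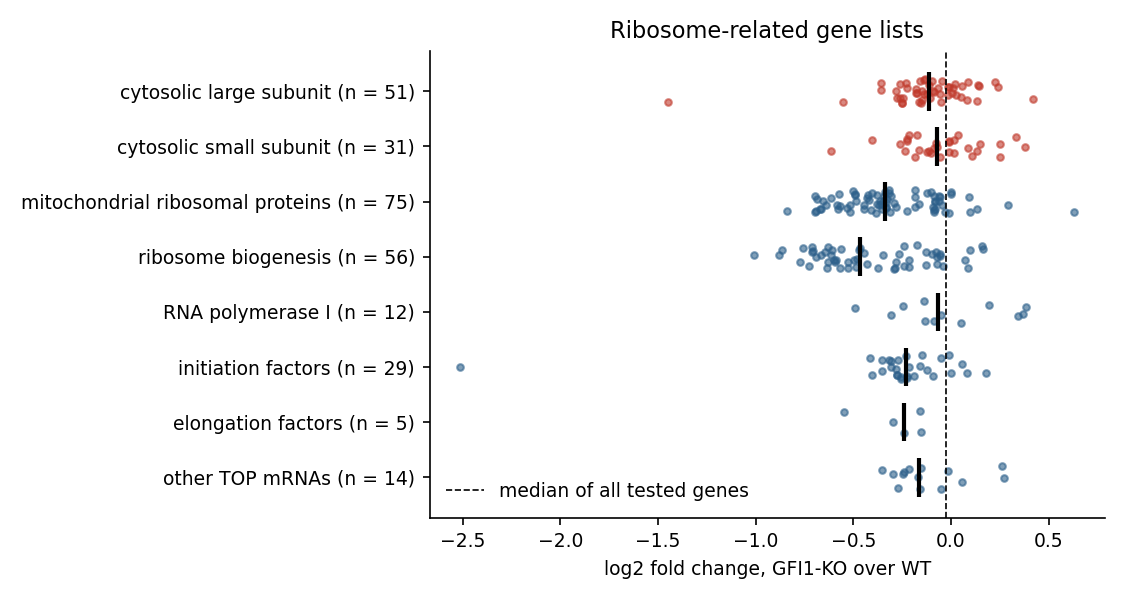
Log2 fold change, GFI1-KO over WT, of each tested gene in the cytosolic ribosomal protein groups (red; the Y-linked member is not drawn) and in related lists (blue), with the median of each (black bar) and of all 11380 tested genes (dashed line, -0.02). The medians are -0.11 and -0.07 for the cytosolic subunits, -0.34 for mitochondrial ribosomal proteins and -0.47 for ribosome biogenesis.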

How the data were processed

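Members and lists were chosen with earlier results of these data known. The deposited table holds whole-number read counts per gene for 4 libraries, made with a TruSeq RNA kit per the labels' protocols. The submitters' processing notes name HISAT2 2.0.4, SAMtools 1.3.1, HTSeq 0.6.0, DESeq 1.18.1 and the builds hg38 and GRCh38; the sources used here give no annotation, read filter or strand setting. Symbols, coordinates, coding lengths and exon overlaps came from GENCODE release 29 (19902 of 19912 IDs matched) and start sequences from RefSeq. A gene's transcript length is that of its shortest well-supported complete transcript with the principal coding length.

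Counts were tested with edgeR 4.0.16 in R 4.3.3 (TMM, filterByExpr with a minimum count of 10 and total of 15, glmQLFTest on genotype), with Benjamini-Hochberg adjustment over 11380 genes and calls under 0.05. SE is the unshrunken log2 fold change over the square root of F. Intervals of fold changes use this SE around the reported log2 fold change, which the prior count shrinks. The test was checked on simulated data. Binomial and single-library CPM intervals and floors cover counting error only; intervals of fold changes come from the fit and include the scatter among libraries. Shares and ratios were compared by exact permutation over libraries. Named members are those of the functional lists and paralogue pairs, the 6 highest and 6 lowest consistent fold changes, the 6 highest levels and the 4 anaemia genes with the smallest adjusted p; other lists give the 2 with the smallest adjusted p. A few genes that the rule names are not reported here. RPS19 falls outside this rule and was chosen after its values were seen. Alternatives were other scalings, filters, dispersions and tools, a replicate block, thinning to 146584 counts and leaving out each library.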

Additional observations from a re-analysis of the deposited data

How the results depend on the processing

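Of the 83 tested members 0 were called under every alternative, while calls over all genes ranged from 8 (thinned) to 373 (without GFI1-KO replicate 1), against 109. With DESeq2 33 genes were called, with limma-voom 132, with the newer dispersion 58, with upper-quartile scaling 58, with library totals only 72, with no low-count filter 305, with only genes averaging 5 CPM or more 50, and with the replicate block 327. Same-numbered libraries correlated at 0.12 in their deviations from the genotype means (11380 genes) and the labels name no shared batch, so the numbers were not used as pairs; with the replicate block the members' median was -0.08. Leaving out 1 library, which assumes that a lone library varies like the other genotype's, moved the median between -0.16 and 0.03, the share difference between -0.54 and 0.16 percentage points, and the large to small ratio between -0.09 and -0.03; that ratio was -0.15 without members that share exons and -0.13 as a difference of mean log2 CPM. Paralogue ratios moved between 0.84 and 1.47 for RPL36AL (0.67 with a pseudocount of 1), between 0.11 and 0.26 for RPL22L1, between -1.82 and -0.22 for RPL26L1, between -0.49 and 0.42 for RPL39L, between -0.51 and 0.01 for RPL7L1, and between -0.79 and 0.15 for RPS27L.

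The alternatives for GFI1 and for related lists were added after seeing the data. The lists gained calls: 5 biogenesis genes with the replicate block and 4 without GFI1-KO replicate 2, 2 mitochondrial ribosomal protein genes without GFI1-KO replicate 2, 1 initiation factor (EIF3C) with no low-count filter, with the replicate block and without replicate 1 of either genotype, 1 growth regulator (MYC) under these 4 and without GFI1-KO replicate 2, and 1 of 3 genes of a list with MDM2 (CDKN1A) without GFI1-KO replicate 1 or WT replicate 2. The leave-out ranges were thus 0 to 4, 0 to 2, 0 to 1, 0 to 1 and 0 to 1.

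Of 546 values of 39 named members under alternatives, 27 had the opposite sign, and none of these was called. In 13 members the sign changed when 1 library was left out, and their log2 fold changes then ranged between -0.29 and 0.10 for RPS2, between -0.059 and 0.10 for RPLP1, between -0.19 and 0.17 for RPLP2, between -0.045 and 0.27 for RPL10, between -0.19 and 0.28 for RPL39, between -0.15 and 0.028 for RPS3, between -0.16 and 0.58 for RPS15, between -0.18 and 0.11 for RPS27A, between -0.37 and 0.26 for RPL22, between -0.11 and 0.17 for RPL22L1, between -0.41 and 0.016 for RPL36AL, between -0.58 and 0.35 for RPL39L, and between -0.76 and 0.29 for RPS27L. Values close to 0 also changed sign for RPLP1 and RPL39, to -0.014 and -0.022 with upper-quartile scaling, to -0.0193 and -0.0176 with no low-count filter, and to -0.0062 and -0.0085 with limma-voom, and for RPL39 to -0.0052 with library totals only. The cause was not tested. Depth in GFI1-KO replicate 1, a median of 74 counts per member, limits the precision.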
